A study of Homo sapiens with 12 samples.

Results

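The knockdown of GPD1L was examined by poly(A) RNA sequencing in SW480, an established human line of colon adenocarcinoma cells. The comparison took the 6 libraries of the knockdown table, 3 labelled shGPD1L (stably transfected cells with a hairpin against GPD1L) and 3 labelled shNC (the matching cells with a control hairpin), of 12 libraries in the series. The other 6 libraries, 3 labelled OE with extra GPD1L and 3 labelled Vector with its control, are set beside the knockdown at the end. Values were deposited as FPKM, which divides fragment counts by transcript length and by the mapped total. Of 13554 genes listed in the knockdown table, the 12156 that averaged 1 FPKM or more across these 6 libraries were tested. The labels name 1 shGPD1L group and 1 shNC group, so effects of GPD1L, of the hairpin on other transcripts and of the separate culture of the lines cannot be told apart. The labels also leave unsaid whether replicates are independent cultures, so a p-value measures only how far these samples spread, and that spread may be technical. In bulk RNA, fewer cells of a kind and less RNA per cell cannot be told apart.

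GPD1L encodes a relative of GPD1, the cytosolic enzyme that interconverts dihydroxyacetone phosphate and glycerol-3-phosphate and links glycolysis to the glycerol backbone of lipids. Together with the mitochondrial enzyme GPD2, GPD1 forms the glycerol phosphate shuttle, which passes electrons from cytosolic NADH to the respiratory chain. Knockdown with a short hairpin RNA uses the cell's RNA interference machinery to degrade a chosen messenger, so the transcript level of the target is the direct check of the label.

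GPD1L (ENSG00000152642, chromosome 3, 32105689 to 32168713, plus strand, GRCh38) was at 8.68, 8.01 and 9.10 FPKM in shNC replicates 1 to 3 and at 1.55, 1.26 and 2.23 FPKM in shGPD1L replicates 1 to 3. All 3 knockdown libraries lay below all 3 controls, and replicate 3 kept the most transcript. Its log2 change was -1.85 (SE 0.14, limma adjusted p = 0.00675) over 6 libraries and -2.0 (SE 0.10, adjusted p = 0.000402) without shGPD1L replicate 3. With 3 libraries on each side, an exact permutation test (two-sided) gave p = 0.1, and this design allows no smaller value. The adjusted p was 0.0677, 0.0522 and 0.0836 without shNC replicate 1, 2 or 3, so the call ended in each case. Here and below, a log2 change is a difference in log2(FPKM + 1), a scale that compresses the changes of low genes, and a gene is called when its limma p, adjusted over all 12156 genes, is under 0.05. GPD2 lay at 7.53, 7.83 and 9.26 FPKM in shNC and at 8.62, 8.43 and 7.04 FPKM in shGPD1L (log2 change -0.03, adjusted p = 0.93). GPD1 was between 0.486 and 0.945 FPKM in the 6 libraries, below the filter. Of 21 tested genes of glycerol phosphate metabolism and glycerolipid assembly, GPD1L was the 1 member called, with and without shGPD1L replicate 3.

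The column totals of the knockdown table ran from 435140 to 444794 FPKM, and the reads behind them are unknown. All 7 epithelial markers of colon (EPCAM, KRT8, KRT18, KRT19, CDH1, VIL1 and CDX1) were present, at a summed 5055 to 5417 FPKM in shNC and 4193 to 4474 FPKM in shGPD1L. Most of each sum was KRT8, KRT18 and KRT19, in which all shGPD1L libraries lay below all shNC libraries. In EPCAM, CDH1, VIL1 and CDX1 the groups met or overlapped. CDX1 was at 12.6, 12.4 and 13.9 FPKM in shNC and at 11.7, 14.9 and 13.2 FPKM in shGPD1L. Of the markers of other cell types, 6 of 13 for fibroblasts and muscle, 1 of 8 for endothelium and 3 of 14 for leukocytes were listed, and PTPRC, PECAM1 and COL1A2 were among those not listed. Replicate 3 of shGPD1L lay away from all other libraries, at 29.1 on the first principal component (41.4% of the variance) against -12.1 to 0.32. In it 64 genes lay at least 1 log2(FPKM + 1) unit above the mean of the other 2 libraries of its group, and 40 at least 1 unit below. In the 5 other libraries these counts were 13 to 19 above and 12 to 22 below. Each result is therefore given over 6 libraries and over the 5 without this replicate, for the same genes.

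Over 6 libraries 72 of 12156 genes (0.592%) were called, 14 higher (0.115%) and 58 lower (0.477%) in shGPD1L. Over 5 libraries 609 (5.01%) were called, 219 higher (1.8%) and 390 lower (3.21%), and all 72 were among them with the same direction. On the log2(FPKM + 1) scale the median size of change was 0.67 units for the 72 and 0.47 for the 609. On that scale 10 genes fell and 1 rose by at least 1 unit over 6 libraries. Such counts understate fold changes in FPKM: IER5L, with a log2 change of 0.99, had a ratio of mean FPKM of 2.09. Median-of-ratios scaling split the calls over 5 libraries into 293 higher and 341 lower. With quantile normalization 25 genes were called over 6 libraries, 8 higher and 17 lower. Without shNC replicate 1, 2 or 3 the counts over 6 libraries were 1, 0 and 0. They were 8 and 7 when shGPD1L replicate 1 or 2 was left out, and in these 5 cases 1249, 1408, 1126, 1612 and 2138 genes had an unadjusted limma p under 0.05. Over all genes, 1980 had an unadjusted p under 0.05 over 6 libraries and 2906 over 5, which is the background for such counts in the lists below. None of the 72 was called without any 1 of the shNC libraries. Of the 537 genes called over 5 libraries only, 346 had a replicate 3 value beyond the shNC range on the same side, and in 152 replicate 3 lay on the other side of the shNC mean. The same shares over all tested genes were not counted, so these counts do not measure agreement by replicate 3.

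**Figure D1:**
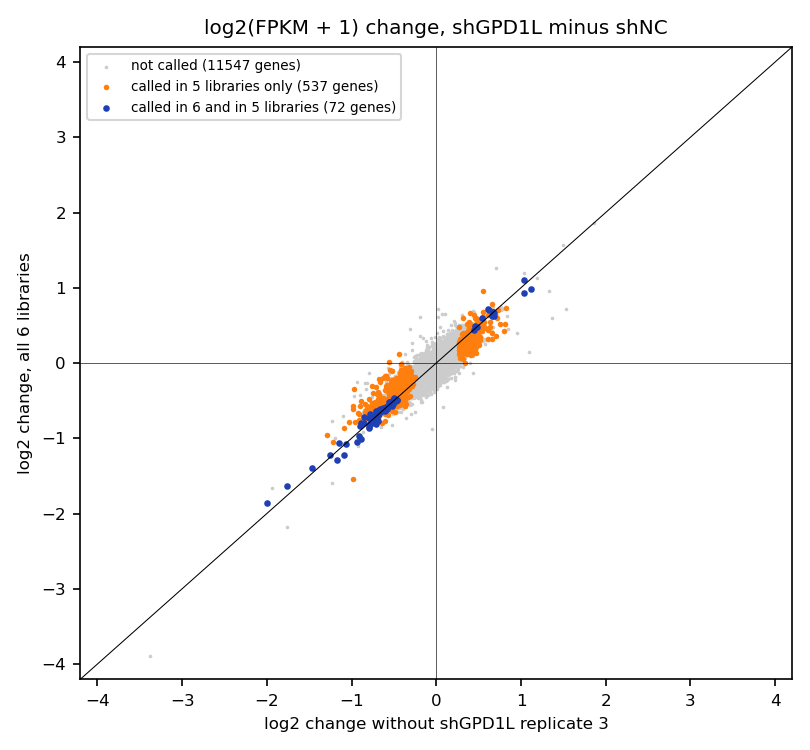
Log2(FPKM + 1) change, shGPD1L minus shNC, of the 12156 tested genes: the horizontal axis leaves out shGPD1L replicate 3, the vertical axis uses all 6 libraries, and each point is a gene. The 72 genes called in both (blue) lie near the diagonal, while many of the 537 called over 5 libraries only (orange) lie nearer to 0 on the vertical axis.

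Among genes called over 6 libraries, the largest falls in log2(FPKM + 1) after GPD1L were in PRSS2 and PRSS1, a pair of trypsinogen genes that encode secreted digestive protease precursors and lie next to each other on chromosome 7. PRSS2 was at 40.9, 37.4 and 37.1 FPKM in shNC and at 10.7, 10.5 and 14.4 FPKM in shGPD1L. PRSS1 was at 18.9, 19.0 and 19.1 FPKM in shNC and at 5.26, 7.42 and 7.43 FPKM in shGPD1L. All 3 knockdown libraries, replicate 3 included, lay far below the controls for both genes. The log2 change was -1.63 for PRSS2 (SE 0.12, adjusted p = 0.00675) and -1.39 for PRSS1 (SE 0.12, adjusted p = 0.00907). Their transcripts are near-identical, so the division of reads between them is uncertain. The promoters are shown because the pair moved together: RefSeq sequence on GRCh38.p14, plus strand, from 250 bases before to 50 bases after the start, at chr7:142749222-142749521 and chr7:142770720-142771019. Capitals mark TATAAA and TGANTCA, the TATA box and the AP-1 motif, matched on both strands.
PRSS1: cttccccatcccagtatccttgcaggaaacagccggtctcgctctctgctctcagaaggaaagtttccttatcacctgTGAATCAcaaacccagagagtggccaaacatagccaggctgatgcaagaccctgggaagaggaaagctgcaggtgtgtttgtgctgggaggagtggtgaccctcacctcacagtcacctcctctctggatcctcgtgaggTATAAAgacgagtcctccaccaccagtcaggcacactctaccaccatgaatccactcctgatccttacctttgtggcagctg
PRSS2: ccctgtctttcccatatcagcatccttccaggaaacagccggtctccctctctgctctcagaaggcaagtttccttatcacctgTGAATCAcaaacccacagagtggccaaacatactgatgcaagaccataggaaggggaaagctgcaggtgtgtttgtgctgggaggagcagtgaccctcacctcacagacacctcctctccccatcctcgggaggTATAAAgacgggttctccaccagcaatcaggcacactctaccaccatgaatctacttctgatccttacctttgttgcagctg
The sequences were identical at 269 of 306 aligned columns (87.9%), and both held a TATA box at position -32 from the start and an AP-1 match, at -172 in PRSS1 and -166 in PRSS2.

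Motifs were counted in the RefSeq promoters of the 34 leading genes of the 6-library comparison, of which 9 of 14 higher and 11 of 20 lower genes matched an entry. TATAAA occurred in 7 of the 11 lower promoters (PRR9, ELF3, CXCL11, PRSS1, PRSS2, CEACAM6 and IGFL2) and in 1 of the 9 higher ones (VGF), against 4.76% of 6424 promoters of tested genes and 12.7% of all 22114. TGANTCA occurred in 5 of the lower (PRR9, CXCL11, ADGRF4, PRSS1 and PRSS2) and in 1 higher promoter (GIT1), against 4.06% of tested genes and 8.05% of all. CACGTG, the E-box that clock factors and others bind, occurred in 3 higher promoters (VGF, RPUSD4 and PER1) and 1 lower (CEACAM6), against 10.9% and 7.28%. These are matches of letters on either strand in a window of fixed length and describe the sequences alone.

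IGFL2, a secreted growth factor-like protein, was at 46.4, 44.1 and 40.8 FPKM in shNC and at 19.0, 18.7 and 14.6 FPKM in shGPD1L (log2 change -1.29, SE 0.11, adjusted p = 0.00907). CEACAM6, a surface glycoprotein of colon carcinoma, was at 4.22, 4.65 and 4.27 FPKM in shNC and 1.95, 1.69 and 1.23 FPKM in shGPD1L (log2 change -1.04, SE 0.13, adjusted p = 0.0299). TNFRSF19, a receptor of the tumour necrosis factor receptor family and a Wnt target, was at 5.37, 4.50 and 4.87 FPKM in shNC and 1.83, 1.17 and 1.63 FPKM in shGPD1L (log2 change -1.22, SE 0.13, adjusted p = 0.0215). In these 3 genes the groups did not overlap and replicate 3 lay with or below the other knockdown libraries. HPGD, the enzyme that inactivates prostaglandins, fell from 13.6, 14.1 and 13.9 FPKM to 5.91, 7.98 and 6.09 FPKM (log2 change -0.97, adjusted p = 0.0299). ATP6V1A, the catalytic subunit of the proton pump that acidifies lysosomes, fell from 20.4, 18.1 and 22.2 FPKM to 9.53, 11.3 and 12.1 FPKM (log2 change -0.83, adjusted p = 0.0337). It was the 1 member called lower of 31 tested lysosome and autophagy genes, against 0.477% of all genes called lower over 6 libraries. SLC35D1, a carrier of nucleotide sugars into the endoplasmic reticulum, had a log2 change of -0.78 (adjusted p = 0.0389).

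Further falls over 6 libraries were those of MYBPH, a myosin-binding protein (log2 change -1.22), PRR9 (-1.08), SH3BGR (-1.07), the decoy interleukin-1 receptor IL1R2 (-0.86), the complement regulator chain C4BPB (-0.85) and the adhesion receptor ADGRF4 (-0.82). Their adjusted p-values ran from 0.00707 to 0.041. MYBPH lay at 2.26, 2.05 and 1.87 FPKM in shNC and at 0.448, 0.430 and 0.081 FPKM in shGPD1L, lowest in replicate 3. SH3BGR overlaps WRB-SH3BGR on its own strand, so reads may be shared. The groups did not overlap for any of the 72 called genes. They were called on these same values, so this adds no separate support. The share of all tested genes whose groups do not overlap was not counted. Statements of groups that do not overlap, here and in other paragraphs, therefore only describe the values.

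**Figure D2:**
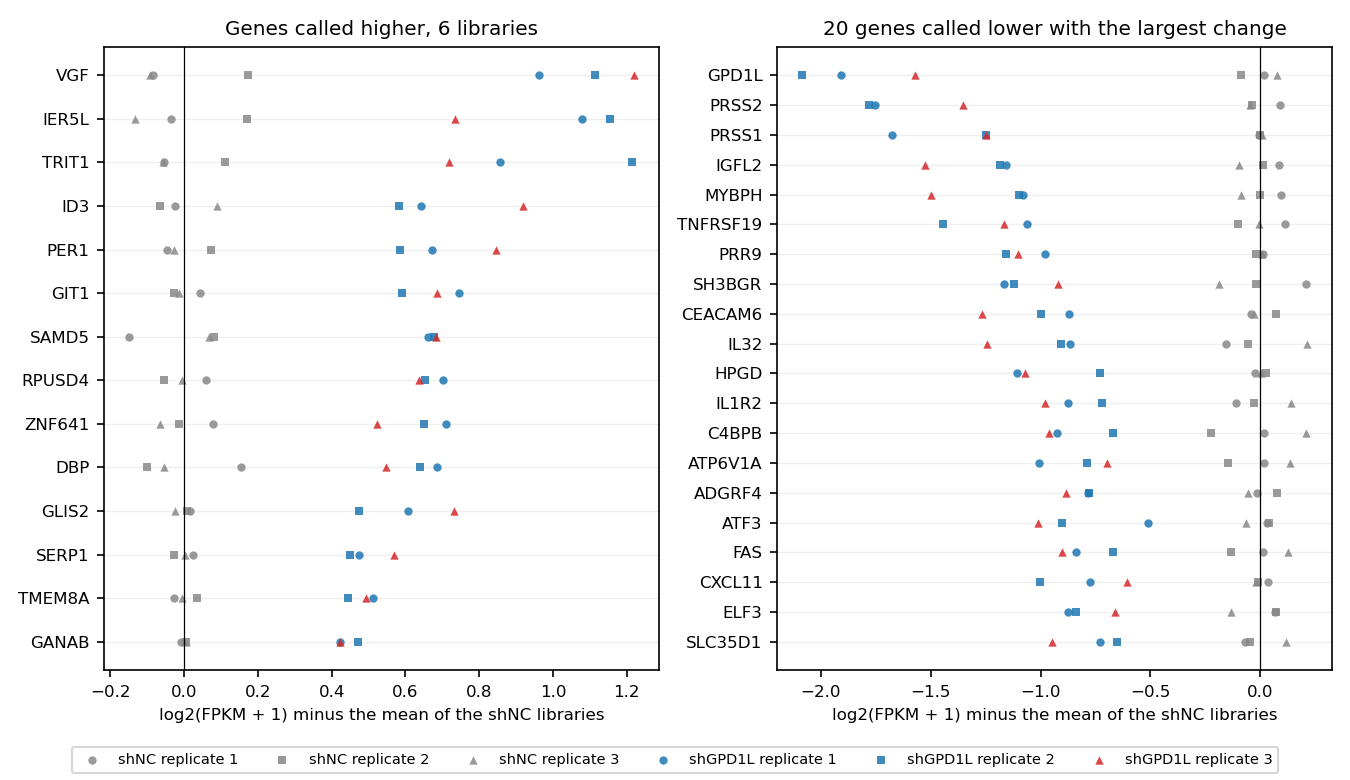
Log2(FPKM + 1) minus the mean of the 3 shNC libraries, for the 14 genes called higher (left) and the 20 called lower with the largest change (right), 1 point per library. Grey points are shNC, blue points shGPD1L replicates 1 and 2, and red triangles shGPD1L replicate 3, which lies on the side of the other 2 in all 34 genes. The 34 genes were called with replicate 3 in the fit, so its side is no separate support.

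VGF, the precursor of secreted neuropeptides of neuroendocrine cells, had the largest log2 change among the 14 genes called higher over 6 libraries, while over 5 libraries IER5L (1.11) lay above it (1.04). VGF was at 48.6, 58.4 and 48.4 FPKM in shNC and at 102, 113 and 121 FPKM in shGPD1L, highest in replicate 3. The groups lay far apart (log2 change 1.10, SE 0.11, adjusted p = 0.0134). The neuroendocrine and secretory granule list held 21 genes, of which 4 were listed in the table and 3 tested, and VGF was the 1 called. The VGF promoter, minus strand, chr7:101165520-101165819, is shown because it held 4 of the motifs searched, which capitals mark: CCAAT at position -138 from the start, the cyclic AMP response element TGACGTCA at -79, CACGTG at -54 and TATAAA, on the other strand, at -32.
VGF: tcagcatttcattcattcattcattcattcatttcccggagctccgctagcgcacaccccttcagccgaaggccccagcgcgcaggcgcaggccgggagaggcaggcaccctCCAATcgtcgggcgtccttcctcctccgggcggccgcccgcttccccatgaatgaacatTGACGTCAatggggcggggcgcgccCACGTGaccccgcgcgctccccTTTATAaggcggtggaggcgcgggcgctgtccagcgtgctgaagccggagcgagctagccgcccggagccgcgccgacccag
TGACGTCA occurred in no other matched promoter of the 34 leading genes, against 3.81% of promoters of tested genes.

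IER5L, of the immediate-early response family, was at 9.77, 11.4 and 9.06 FPKM in shNC and at 22.3, 23.6 and 17.4 FPKM in shGPD1L (log2 change 0.99, SE 0.13, adjusted p = 0.0337). TRIT1, which modifies adenosine in transfer RNA, was at 5.51, 6.29 and 5.50 FPKM in shNC and at 11.2, 14.7 and 10.1 FPKM in shGPD1L (log2 change 0.93, SE 0.13, adjusted p = 0.0374). RPUSD4, a mitochondrial pseudouridine synthase, was at 9.54, 8.74 and 9.07 FPKM in shNC and at 15.4, 14.9 and 14.7 FPKM in shGPD1L (log2 change 0.66, SE 0.08, adjusted p = 0.0299). Both RNA-modifying enzymes were higher in 3 of 3 knockdown libraries, with little spread in RPUSD4. Of 31 tested genes of transfer RNA modification and mitochondrial translation they were the 2 called higher, against 0.115% of all genes. The list median was -0.11 against -0.04 over all genes, and 2 of 31 members had a positive log2 change. Over 5 libraries DUS2, a dihydrouridine synthase, was called lower in this list (log2 change -0.74, adjusted p = 0.0253).

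GANAB and SERP1 act in the endoplasmic reticulum (ER), where secreted proteins fold. GANAB, the catalytic subunit of glucosidase II, was at 133, 134 and 134 FPKM in shNC and at 180, 186 and 180 FPKM in shGPD1L (log2 change 0.44, SE 0.07, adjusted p = 0.0471). SERP1, a stress-associated protein of the translocon, was at 46.4, 44.7 and 45.6 FPKM in shNC and 63.6, 62.6 and 68.0 FPKM in shGPD1L (log2 change 0.50, adjusted p = 0.0389). TMEM8A, which acts on lipid-anchored proteins, had a log2 change of 0.48 (adjusted p = 0.0389). Their groups were far apart beside the spread within them. GIT1, a scaffold for small GTPase signalling (log2 change 0.67), SAMD5 (0.67), the zinc finger genes ZNF641 (0.63) and GLIS2 (0.60) also rose, at adjusted p-values of 0.0299 to 0.0437. Without a stated strand, reads of RPUSD4, DBP, GIT1, GLIS2 and SERP1 cannot be separated from those of genes that overlap them on the other strand. TMEM8A overlaps MRPL28 on its own strand.

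The ER chaperone list, folding enzymes and degradation factors of that compartment, had 0 of 32 members called over 6 libraries, with 11 at an unadjusted limma p under 0.05 (1980 of 12156 over all genes), and 6 higher and 0 lower over 5 (1.8% and 3.21% of all genes). The list median was 0.08 over 6 libraries and 0.12 over 5, against -0.04 and -0.01 over all genes. MANF, a secreted ER stress protein, was at 61.6, 69.0 and 66.4 FPKM in shNC and 85.6, 90.0 and 88.7 FPKM in shGPD1L (log2 change 0.42 over 5 libraries, adjusted p = 0.0218). CALR, the calcium-binding chaperone calreticulin, was at 564, 573 and 549 FPKM in shNC and at 748, 738 and 773 FPKM in shGPD1L (log2 change 0.40 over 5 libraries, adjusted p = 0.0194). Replicate 3 lay with the other knockdown libraries in both genes. DNAJB11 (0.37), SYVN1 (0.34), PDIA4 (0.33) and HSPA5 (0.27) were the other called members. With shNC replicate 1, 2 or 3 or shGPD1L replicate 1 or 2 also left out, 0, 4, 0, 0 and 0 members were called higher. The near-identical cytosolic heat shock genes HSPA1A and HSPA1B were also called higher over 5 libraries (0.55 and 0.56).

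Clock genes moved in both directions. PER1, a repressor of the clock, was at 10.3, 11.3 and 10.4 FPKM in shNC and at 17.6, 16.5 and 19.9 FPKM in shGPD1L (log2 change 0.70, SE 0.09, adjusted p = 0.0337). DBP, a clock-controlled transcription factor, was at 15.7, 13 and 13.5 FPKM in shNC and at 23.2, 22.4 and 20.9 FPKM in shGPD1L (log2 change 0.62, SE 0.09, adjusted p = 0.041). Both were higher in 3 of 3 knockdown libraries. Over 5 libraries the activators ARNTL (log2 change -0.68, adjusted p = 0.0105), RORA (-0.57, 0.0147) and CLOCK (-0.43, 0.0357) were called lower. In replicate 3 these 3 lay at 7.50, 17.8 and 13.2 FPKM, near the shNC values of 7.78 to 8.72, 16.7 to 18.1 and 13.3 to 15.3 FPKM. Of 20 tested clock genes, 2 were thus called higher and 0 lower over 6 libraries, and 2 higher and 3 lower over 5. Of all genes 0.115% were called higher and 0.477% lower over 6 libraries, and 1.8% and 3.21% over 5. With 1 further library left out (shNC replicate 1, 2 or 3, shGPD1L replicate 1 or 2), 1, 2, 1, 0 and 1 were called higher and 0, 2, 1, 0 and 1 lower.

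The ID genes encode helix-loop-helix proteins that block the DNA binding of differentiation factors and are targets of BMP signalling. ID3 was at 20.2, 19.6 and 22.0 FPKM in shNC and at 32.6, 31.3 and 39.8 FPKM in shGPD1L (log2 change 0.71, SE 0.11, adjusted p = 0.0389). ID1 was at 118, 116 and 112 FPKM in shNC and at 167, 158 and 195 FPKM in shGPD1L, and ID2 at 58.8, 56.0 and 61.1 FPKM and at 77, 73 and 78.2 FPKM. The groups did not overlap in any of the 3, which is a description without the share over all genes, and ID1 and ID3 were highest in replicate 3. ID1 (log2 change 0.48, adjusted p = 0.0113) and ID2 (0.35, 0.0299) were called over 5 libraries, and had adjusted p-values of 0.0539 and 0.0832 over 6. The other 19 tested genes of the ID, TGF-beta and BMP list held 1 called member over 5 libraries, GDF15, which was lower. Of all genes 1.8% were called higher and 3.21% lower over 5 libraries, and 0.115% and 0.477% over 6. With 1 further library left out in the order used for the clock genes, 0, 2, 2, 0 and 2 members of the list were called higher.

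Immediate-early genes, which growth factors and stress induce within minutes, had 1 of 36 members called higher (IER5L) and 1 lower (ATF3) over 6 libraries, and 6 higher and 1 lower over 5. Of all genes 0.115% were called higher and 0.477% lower over 6 libraries, and 1.8% and 3.21% over 5. ATF3, a stress-induced repressor of the ATF/CREB family, was at 13.1, 13.2 and 12.2 FPKM in shNC and at 8.70, 6.40 and 5.87 FPKM in shGPD1L (log2 change -0.81, SE 0.13, adjusted p = 0.048). It was lower in 3 of 3 libraries, lowest in replicate 3, while the mean of the list lay at 0.13, 0.07 and 0.54 log2 units above the shNC mean in replicates 1 to 3. The ATF3 call over 6 libraries held in 5 of 15 alternative settings, with limma adjusted p-values from 0.00935 to 0.245. An exact permutation test (two-sided) of ATF3 gave p = 0.1, the smallest value this design allows. The orphan receptor NR4A1 was at 25.0, 18.9 and 19.1 FPKM in shNC and at 31.5, 30.2 and 73.5 FPKM in shGPD1L (log2 change 0.55 over 5 libraries, adjusted p = 0.0477). The secreted matrix protein CTGF was at 9.87, 11.3 and 9.80 FPKM in shNC and 14.5, 13.4 and 24.8 FPKM in shGPD1L (log2 change 0.40, adjusted p = 0.0454). JUNB, KLF10 and DUSP6 were also called higher over 5 libraries, and NAB2, a corepressor of EGR factors that overlaps STAT6 on the other strand, was called higher outside the list (log2 change 0.56, adjusted p = 0.0164). PTGS2, the inducible prostaglandin synthase, rose over 5 libraries (log2 change 0.46, adjusted p = 0.0314), while HPGD, which degrades prostaglandins, fell. With 1 further library left out in the same order, 2, 3, 1, 1 and 1 members of the list were called higher and 0, 0, 0, 1 and 0 lower.

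The transcription factor p53 induces genes of cell cycle arrest and apoptosis, and SW480 carries a mutant form. Of 30 tested targets 2 were called lower and 0 higher over 6 libraries, and 9 lower and 0 higher over 5. Of all genes 0.477% were called lower over 6 libraries and 3.21% over 5. The median log2 change was -0.28 and -0.31, against -0.04 and -0.01 over all genes. The list mean lay at -0.28, -0.25 and -0.27 log2 units in shGPD1L replicates 1 to 3, close to each other in all 3. FAS, the death receptor, was at 12.8, 11.4 and 13.9 FPKM in shNC and at 6.63, 7.59 and 6.32 FPKM in shGPD1L (log2 change -0.80, SE 0.10, adjusted p = 0.0337). RRM2B, a ribonucleotide reductase subunit, was at 17.4, 16.5 and 17.2 FPKM in shNC and 10.6, 11.9 and 12.2 FPKM in shGPD1L (log2 change -0.52, SE 0.08, adjusted p = 0.048). The groups did not overlap in either gene. CDKN1A, the p21 inhibitor of cyclin-dependent kinases, was at 276, 271 and 257 FPKM in shNC and at 171, 175 and 242 FPKM in shGPD1L (log2 change -0.63 over 5 libraries, adjusted p = 0.00696; adjusted p = 0.173 over 6). PMAIP1, which encodes the apoptosis inducer NOXA, was at 46.2, 41.2 and 51.6 FPKM in shNC and 28.5, 31.6 and 33.5 FPKM in shGPD1L (log2 change -0.60 over 5 libraries, adjusted p = 0.0218). The TRAIL receptor TNFRSF10B (-0.39), SESN1 (-0.48), GADD45A (-0.47), ZMAT3 (-0.36) and PLK2 (-0.36) were the remaining called members. With shNC replicate 1, 2 or 3 or shGPD1L replicate 1 or 2 also left out, 1, 7, 2, 0 and 4 members were called lower, and the median stayed between -0.32 and -0.27. FAS overlaps ACTA2 on the other strand, and ACTA2 was at 5.22, 5.85 and 14.4 FPKM in shGPD1L replicates 1 to 3 against 8.64 to 10.3 FPKM in shNC.

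**Figure D3:**
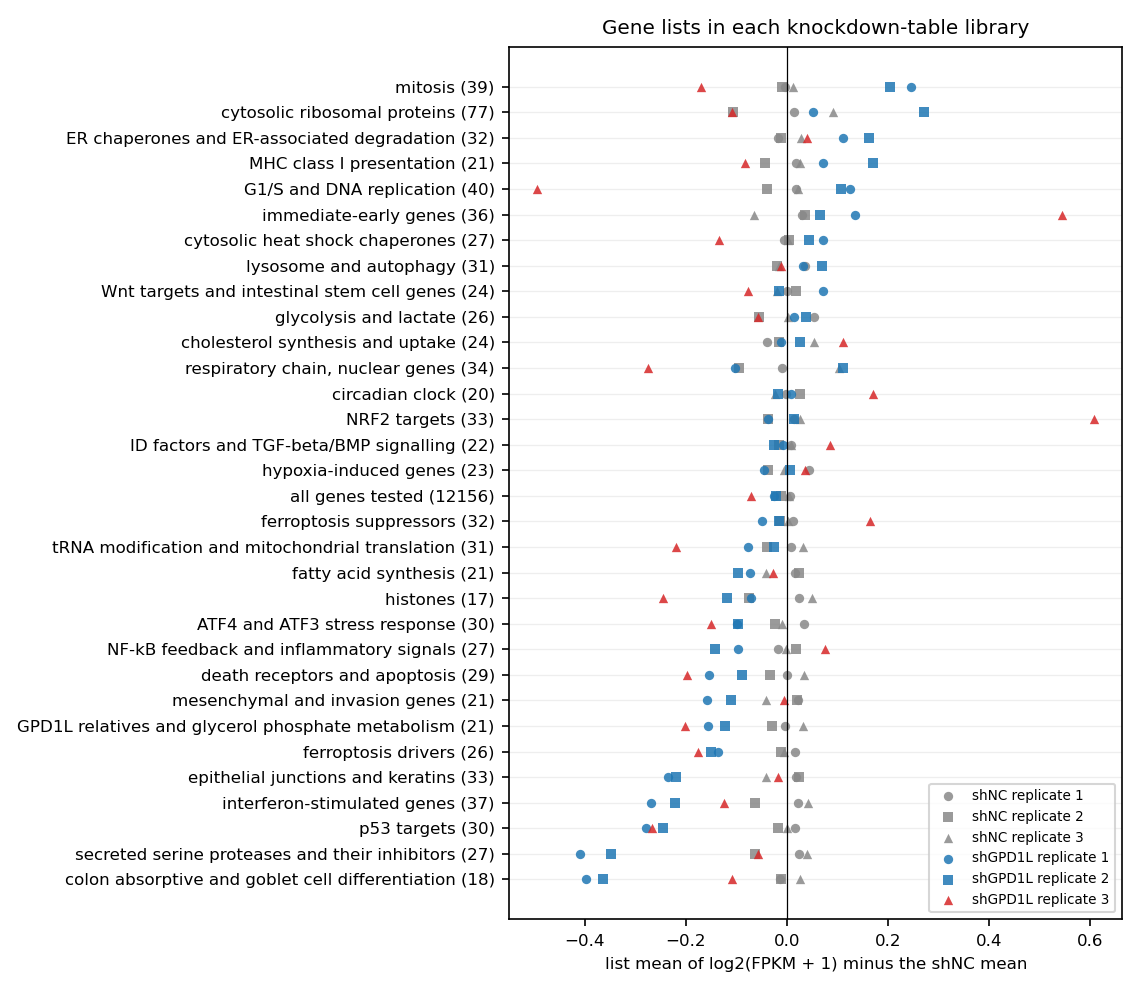
Mean over the members of each gene list of log2(FPKM + 1) minus the shNC mean, 1 point per library, with the number of members in parentheses; lists of at least 15 tested members are shown. Grey points are shNC, blue points shGPD1L replicates 1 and 2, and red triangles shGPD1L replicate 3, which lies near the other 2 for p53 targets (-0.27) and away from them for NRF2 targets (0.61), immediate-early genes (0.54) and DNA replication genes (-0.49).

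The interferon-stimulated list had 3 of 37 members called lower and 0 higher over 6 libraries, and 7 lower and 0 higher over 5, against 0.477% and 3.21% of all genes called lower. The medians were -0.21 and -0.24, against -0.04 and -0.01 over all genes. CXCL11 and CXCL10, neighbouring chemokine genes on chromosome 4 whose proteins attract T cells, were among the called members. CXCL11 was at 16.1, 15.6 and 15.4 FPKM in shNC and at 8.77, 7.34 and 9.97 FPKM in shGPD1L (log2 change -0.79, SE 0.11, adjusted p = 0.0337). CXCL10 was at 30.9, 25.3 and 31.2 FPKM in shNC and at 17.7, 16.5 and 16.6 FPKM in shGPD1L (log2 change -0.74, SE 0.10, adjusted p = 0.0337). All 3 knockdown libraries lay below all controls in both. The third gene of that cluster, CXCL9, chosen here after its values were seen, was at 2.51, 2.61 and 3.09 FPKM in shNC and at 1.38, 1.16 and 2.32 FPKM in shGPD1L and was called over 5 libraries (log2 change -0.72). The promoters of the pair, RefSeq on GRCh38.p14, minus strand, at chr4:76023448-76023747 and chr4:76036021-76036320, are shown because the genes moved together. Capitals mark, on either strand, an NF-kB-type site GGAAATTCC, an interferon response type site GAAANNGAA, and the AP-1, TATA and CCAAT motifs spelled out for the genes above.
CXCL10: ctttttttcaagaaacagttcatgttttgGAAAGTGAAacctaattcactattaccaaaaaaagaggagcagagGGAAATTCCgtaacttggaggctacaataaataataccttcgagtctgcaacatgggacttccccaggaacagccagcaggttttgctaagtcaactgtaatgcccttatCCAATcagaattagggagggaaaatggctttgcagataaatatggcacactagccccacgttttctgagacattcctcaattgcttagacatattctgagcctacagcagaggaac
CXCL11: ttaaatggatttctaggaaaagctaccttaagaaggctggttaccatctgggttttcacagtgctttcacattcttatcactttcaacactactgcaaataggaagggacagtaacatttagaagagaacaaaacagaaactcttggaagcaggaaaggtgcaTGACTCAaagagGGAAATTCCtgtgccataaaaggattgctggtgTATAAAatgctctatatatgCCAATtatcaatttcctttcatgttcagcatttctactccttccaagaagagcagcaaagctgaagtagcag
Both held GGAAATTCC, at position -176 in CXCL10 and -75 in CXCL11, which occurred in 0.483% of promoters of tested genes and 0.488% of all. CXCL10 held GAAANNGAA at -221, a motif found in 6.2% of promoters of tested genes and 8.6% of all. Both motifs were searched after these sequences were seen.

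IFI35, an interferon-induced leucine zipper protein, was at 18.4, 18.2 and 19.9 FPKM in shNC and at 11.6, 12.8 and 12.2 FPKM in shGPD1L (log2 change -0.59, SE 0.08, adjusted p = 0.0337). DDX60, a helicase of the antiviral response, was at 18.6, 16.6 and 19.4 FPKM in shNC and at 10.7, 11.3 and 19.6 FPKM in shGPD1L, so replicate 3 lay with the controls (log2 change -0.68 over 5 libraries, adjusted p = 0.011). OAS1 (-0.41), OASL (-0.39) and HERC6 (-0.46) were the other members called over 5 libraries. With shNC replicate 1, 2 or 3 or shGPD1L replicate 1 or 2 also left out, 1, 7, 4, 1 and 3 members were called lower. Genes of MHC class I presentation, many of which interferon also induces, had 0 of 21 members called over 6 libraries. Of the 21, 2 had an unadjusted limma p under 0.05 (1980 of 12156 over all genes). Over 5 libraries 1 of the 21, CALR, was called higher, against 1.8% of all genes.

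Of cytokines, IL32 fell from 12.3, 13.3 and 16.1 FPKM to 7.13, 6.91 and 5.26 FPKM (log2 change -1.0, SE 0.14, adjusted p = 0.0337). IL33, an alarmin released by damaged epithelium, was at 88.2, 91.4 and 93.5 FPKM in shNC and at 36.9, 36.2 and 73.6 FPKM in shGPD1L. Replicate 3 lay between the controls and the other knockdown libraries, and the log2 change was -1.29 over 5 libraries (SE 0.06, adjusted p = 0.000289) and -0.96 over 6 (SE 0.24, adjusted p = 0.137). CHI3L1, a secreted chitinase-like glycoprotein, was at 13.5, 13.7 and 13.4 FPKM in shNC and at 7.21, 5.65 and 1.31 FPKM in shGPD1L (log2 change -0.98 over 5 libraries, adjusted p = 0.00782; -1.54 over 6, adjusted p = 0.147). There replicate 3 lay below the other knockdown libraries. Of 27 tested genes of NF-kB feedback and inflammation, 1 was called lower and 0 higher over 6 libraries, and 2 lower (IL32 and IL18) and 1 higher (PTGS2) over 5. Of all genes 0.477% were called lower over 6 libraries, and 3.21% lower and 1.8% higher over 5.

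Of 18 tested genes of absorptive and goblet cell differentiation 1 fell over 6 libraries (CEACAM6) and 7 fell over 5, with 0 higher in either. The medians were -0.24 and -0.36, against -0.04 and -0.01 over all genes, of which 0.477% and 3.21% were called lower. The list mean lay at -0.40, -0.36 and -0.11 log2 units in replicates 1 to 3. DPEP1, a dipeptidase of the apical membrane, was at 19.6, 20 and 18.5 FPKM in shNC and at 10.6, 11.9 and 14.3 FPKM in shGPD1L (log2 change -0.73 over 5 libraries, adjusted p = 0.00794). TFF1, a trefoil peptide of mucus, was at 36.6, 42.0 and 35.9 FPKM in shNC and 21.4, 22.6 and 28.9 FPKM in shGPD1L (log2 change -0.77, adjusted p = 0.00805). The groups did not overlap in either gene, and replicate 3 was the nearest to the controls. CDH17, the liver-intestine cadherin, was at 13.2, 15.7 and 15.6 FPKM in shNC and at 9.63, 9.60 and 22.2 FPKM in shGPD1L, where replicate 3 lay above the controls (log2 change -0.58 over 5 libraries, adjusted p = 0.0188). The brush border protein villin, encoded by VIL1 (-0.55), LGALS4 (-0.40) and MUC13 (-0.37) were also called over 5 libraries. With shNC replicate 1, 2 or 3 or shGPD1L replicate 1 or 2 also left out, 3, 6, 4, 1 and 3 members were called lower. Summed markers of fibroblasts and muscle were at 13.4, 13.3 and 24.3 FPKM in shGPD1L and 18.3 to 20.8 FPKM in shNC, and those of leukocytes at 22.2, 20.8 and 29.4 FPKM and 28.7 to 33.4 FPKM. Their part in the result was not tested.

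The list of epithelial junctions, keratins and laminins had 2 of 33 members called lower over 6 libraries and 9 over 5, with 0 higher, against 0.477% and 3.21% of all genes called lower. The medians were -0.12 and -0.19, against -0.04 and -0.01 over all genes. ELF3, an epithelial ETS factor, was at 3.57, 3.58 and 2.97 FPKM in shNC and at 1.38, 1.44 and 1.76 FPKM in shGPD1L (log2 change -0.79, SE 0.12, adjusted p = 0.0374). All 3 knockdown libraries lay below the controls. CLDN7, a tight junction claudin, was at 81.5, 76.6 and 77.7 FPKM in shNC and at 44.8, 53.3 and 68.7 FPKM in shGPD1L (log2 change -0.68 over 5 libraries, adjusted p = 0.0105). KRT80 fell in the same fit (-0.64), with TJP1 (-0.37), TJP3 (-0.42), KRT19 (-0.34), DSC2 (-0.50) and LAMB3 (-0.37). With 1 further library left out in the same order 0, 4, 3, 0 and 2 members were called lower. CLDN7 overlaps ELP5 on the other strand.

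Mesenchymal and invasion genes held falls and no rise among their calls. Of 21 tested, 1 fell over 6 libraries and 5 over 5, against 0.477% and 3.21% of all genes called lower, and 0 were called higher. The list medians were -0.05 and -0.13, against -0.04 and -0.01 over all genes, so over 6 libraries the median was near that of all genes. MMP1, an interstitial collagenase, was at 8.61, 8.14 and 7.74 FPKM in shNC and at 4.57, 4.62 and 5.58 FPKM in shGPD1L (log2 change -0.63, SE 0.10, adjusted p = 0.0471). COL17A1 (-0.56), the matrix glycoprotein THBS1 (-0.40), TIMP3 (-0.40) and the adhesion molecule L1CAM (-0.69) were called over 5 libraries. With 1 further library left out in the same order 0, 3, 2, 0 and 1 members were called lower. Of 27 tested secreted serine proteases and inhibitors, 2 fell over 6 libraries (PRSS1 and PRSS2) and 5 over 5, against 0.477% and 3.21% of all genes called lower. Over 5 libraries 0 of 27 log2 changes were positive, against 5725 of 12156 over all genes, and the list mean was -0.41, -0.35 and -0.06 in replicates 1 to 3. The count of members called lower was 3, 4, 3, 3 and 4 on leaving out a further library. SERPINB5, the serpin maspin, was at 29.6, 28.7 and 29.6 FPKM in shNC and at 17.7, 17.0 and 26.8 FPKM in shGPD1L (log2 change -0.73 over 5 libraries, adjusted p = 0.0063). F2RL1, a protease-activated receptor that trypsin cleaves, was at 202, 202 and 206 FPKM in shNC and at 83.2, 139 and 151 FPKM in shGPD1L (log2 change -0.91 over 5 libraries, SE 0.18, adjusted p = 0.0362). Its groups did not overlap, and the knockdown libraries differed among themselves.

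Wnt targets and intestinal stem cell genes split between higher and lower members. Over 6 libraries 1 of 24 was called, TNFRSF19, which fell. Over 5 libraries 4 were higher and 1 lower, with a list median of 0.03. Of all genes 0.477% were called lower over 6 libraries, and 1.8% higher and 3.21% lower over 5. APCDD1, a Wnt inhibitor, was at 2.60, 3.06 and 2.53 FPKM in shNC and at 5.36, 4.87 and 3.74 FPKM in shGPD1L (log2 change 0.71, adjusted p = 0.0159). ASCL2, a stem cell transcription factor, was at 2.27, 2.96 and 3.22 FPKM in shNC and at 5.36, 5.91 and 2.05 FPKM in shGPD1L, so replicate 3 lay below the controls (log2 change 0.80 over 5 libraries, adjusted p = 0.0198). EPHB3 (0.43) and NKD1 (0.48) were the other members called higher. With 1 further library left out in the same order 0, 2, 1, 0 and 0 members were called higher and 0, 1, 1, 1 and 1 lower.

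Mitosis genes were called in 1 direction, over 5 libraries alone. Over 6 libraries 0 of 39 members were called, with 6 at an unadjusted limma p under 0.05. Over 5 libraries 10 were called higher and 0 lower, against 1.8% and 3.21% of all genes. The list median was 0.24, against -0.01 over all genes. The list mean lay at 0.25, 0.20 and -0.17 log2 units in replicates 1 to 3. UBE2C, a ubiquitin-conjugating enzyme of the anaphase-promoting complex, was at 76.8, 89.0 and 80.7 FPKM in shNC and at 113, 107 and 96.9 FPKM in shGPD1L (log2 change 0.42 over 5 libraries, adjusted p = 0.0289). BIRC5, which encodes survivin, was at 41.4, 36.4 and 43.2 FPKM in shNC and at 51.6, 57.4 and 28.1 FPKM in shGPD1L (log2 change 0.43, adjusted p = 0.0406). Replicate 3 lay above all controls in UBE2C, in KIF2C (35.9 against 30.9 to 33.1 FPKM) and in CDC25B (66.1 against 40.1 to 44.7 FPKM), and below them in BIRC5. CDC25B (0.47), KIF2C (0.44), PLK1 (0.35), AURKB (0.35), CDC20 (0.33), PTTG1 (0.37), DLGAP5 (0.38) and CENPA (0.39) were the other called members. With shNC replicate 1, 2 or 3 or shGPD1L replicate 1 or 2 also left out, 0, 5, 0, 0 and 0 members were called. Genes of the G1/S step and DNA replication had 0 of 40 members called over 6 libraries, with 2 at an unadjusted p under 0.05 (1980 of 12156 over all genes). Over 5 libraries 3 were called higher (CCNE1, MCM6 and MCM7), which became 0, 1, 0, 0 and 0 with a further library left out. The list means were 0.12, 0.11 and -0.49 in replicates 1 to 3.

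Other lists held few calls. For comparison, 0.115% of all genes were called higher and 0.477% lower over 6 libraries, and 1.8% and 3.21% over 5. Of 17 tested histone genes 2 fell over 6 libraries, HIST1H2BK, from 30.9, 26.4 and 31.8 FPKM to 16.9, 16.9 and 17.6 FPKM (log2 change -0.76, SE 0.09, adjusted p = 0.0299), and HIST2H2AA3, nearly identical to its neighbour HIST2H2AA4 (-0.58, adjusted p = 0.0341). H2AFX was called higher over 5 libraries, at 98.4, 85.8 and 46.2 FPKM in shGPD1L against 65.3 to 67.6 FPKM in shNC. Of 26 tested ferroptosis drivers ATF3 was the 1 called, and with quantile normalization over 6 libraries 0 were. Over 6 libraries 10 drivers had an unadjusted limma p under 0.05 (1980 of 12156 over all genes). Their median log2 change was -0.16, against -0.04 over all genes, and 7 of 26 were positive. Of 32 suppressors 0 were called over 6 libraries, with 2 at an unadjusted p under 0.05. Over 5 libraries 1 suppressor, AKR1C1, was called lower, at 2.18 and 2.85 FPKM in replicates 1 and 2 against 3.69 to 4.56 FPKM in shNC, while replicate 3 was at 10.7 FPKM. Cytosolic ribosomal protein genes had 0 of 77 called over 6 libraries, with 6 at an unadjusted p under 0.05, and 1 higher over 5, RPS28. Nuclear genes of the respiratory chain had 0 of 34 called in both fits (1 and 2 at an unadjusted p under 0.05), and the 13 mitochondrially encoded messengers likewise 0 (1 and 2). In fatty acid synthesis 0 of 21 were called over 6 libraries (7 at an unadjusted p under 0.05) and 4 lower over 5, among them ACSS2, which makes acetyl-CoA from acetate (-0.51), and the lipid droplet protein PLIN2 (-0.35). Cholesterol synthesis had 0 of 24 called over 6 libraries (4 at an unadjusted p under 0.05) and 1 higher over 5, FDFT1 (0.26). Glycolysis had 0 of 26 called over 6 libraries (3 at an unadjusted p under 0.05). Over 5 libraries ENO2 was called higher (0.41), and the glucose carrier SLC2A1 (-0.30) and ALDOC (-0.43) lower. The calls over 5 libraries, with a further library left out in the same order, became 0, 1, 0, 0 and 0 in fatty acid synthesis and 0 in every case in glycolysis and in cholesterol synthesis. The ferroptosis suppressor call became 0, 1, 0, 0 and 0, and the ribosomal protein calls 0, 3, 0, 0 and 0.

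Among genes called over 5 libraries whose replicate 3 also lay beyond the shNC range, the growth factor IGF2 was at 6.23, 7.02 and 5.51 FPKM in shNC and at 10.8, 9.95 and 13.9 FPKM in shGPD1L (log2 change 0.66, adjusted p = 0.0203). Hormone-sensitive lipase, encoded by LIPE, was at 3.55, 2.89 and 3.27 FPKM in shNC and at 4.97, 5.55 and 5.04 FPKM in shGPD1L (log2 change 0.56, adjusted p = 0.0316). CALD1, the actin-binding protein caldesmon, was at 5.31, 4.92 and 5.12 FPKM in shNC and at 1.64, 2.10 and 3.63 FPKM in shGPD1L (log2 change -1.09, adjusted p = 0.00684). WRNIP1, a partner of the Werner helicase, was at 32.0, 33.1 and 35.5 FPKM in shNC and at 16.6, 15.3 and 27.0 FPKM in shGPD1L (log2 change -1.03, adjusted p = 0.00264). In CALD1 and WRNIP1 replicate 3 lay between the other knockdown libraries and the controls, while in IGF2 it was the highest. KCTD20 (0.63), RBM15B (0.56), KAT7 (0.73), UBALD2 (0.61), EFNA2 (0.56) and B3GNT10 (0.82) were further higher genes. CACNA2D4 (-1.22), C3orf52 (-0.84), ADSSL1 (-0.84), PLCH2 (-0.81), SLC9A2 (-0.80), SLC25A30 (-0.80) and VILL (-0.79) were further lower ones. Over 6 libraries the adjusted p-values of these 17 genes ran from 0.0572 (IGF2) to 0.246 (SLC9A2).

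In other genes the call over 5 libraries rests on replicates 1 and 2 alone. LIPH, a lipase of the cell membrane, was at 3.07, 3.41 and 3.25 FPKM in shNC and at 1.38, 1.20 and 4.06 FPKM in shGPD1L (log2 change -0.89 over 5 libraries, adjusted p = 0.00962; -0.51 over 6, adjusted p = 0.421). PRR15L was at 1.06, 1.66 and 3.62 FPKM in shGPD1L against 3.13 to 3.54 FPKM in shNC, and FGFBP1, a carrier of fibroblast growth factors, at 1.08, 1.23 and 2.95 FPKM against 2.28 to 3.34 FPKM. TPSAB1, a tryptase, was at 2.81, 2.90 and 2.44 FPKM in shNC and at 5.54, 5.45 and 2.60 FPKM in shGPD1L (log2 change 0.81 over 5 libraries, adjusted p = 0.0105). SAP30, a subunit of a histone deacetylase complex, was at 21.7, 26.8 and 11.4 FPKM in shGPD1L against 13.3 to 17.5 FPKM in shNC. In each of these 5 genes the 2 groups overlapped over 6 libraries.

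The genes farthest from the other knockdown libraries in shGPD1L replicate 3 are given as a description, with no test, since they were chosen for that distance. UGT1A1, a glucuronidating enzyme, was at 41.6 FPKM there against 7.07 and 7.00 FPKM in replicates 1 and 2 and 7.26 to 9.04 FPKM in shNC. AKR1B10, an aldo-keto reductase, was at 53.6 against 10.2 and 10.2 FPKM, and GPX2, a gastrointestinal glutathione peroxidase, at 47.4 against 15.8 and 12.8 FPKM. ZFP36, which destabilises messengers, was at 119 against 37.4 and 33.0 FPKM, DUSP5, a phosphatase of ERK, at 132 against 34.7 and 42.0 FPKM, and GDF15, a stress-induced cytokine, at 688 against 212 and 218 FPKM. The NRF2 target list, antioxidant and detoxifying enzymes, lay at -0.04, 0.02 and 0.61 log2 units in replicates 1 to 3. Over 6 libraries 0 of 33 members were called, with 6 at an unadjusted limma p under 0.05 (1980 of 12156 over all genes). Over 5 libraries 1 was called higher and 3 lower, against 1.8% and 3.21% of all genes. Among the lowest, HNRNPM, a splicing factor, was at 80.2 FPKM in replicate 3 against 178 and 179 FPKM, RBM3, a cold-induced RNA-binding protein, at 44.8 against 105 and 105 FPKM, and FAM111B at 5.80 against 17.0 and 15.8 FPKM. SENP3-EIF4A1, AL136295.4, HYPK and PTP4A1, which overlap other genes on their own strand, also varied several-fold within shNC or between the other knockdown libraries.

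**Figure D4:**
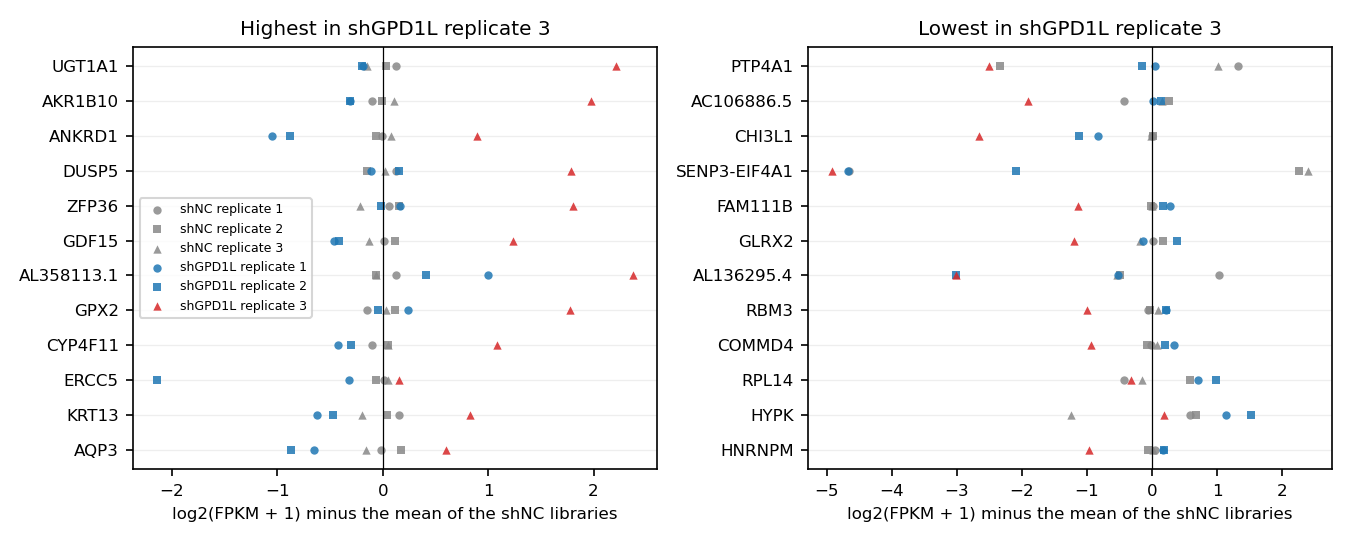
Log2(FPKM + 1) minus the mean of the shNC libraries for the 12 genes highest (left) and 12 lowest (right) in shGPD1L replicate 3 relative to the other 2 libraries of its group, 1 point per library. Red triangles are replicate 3. The blue points of replicates 1 and 2 lie near the grey shNC points in genes such as UGT1A1, DUSP5 and HNRNPM, and away from them in ANKRD1 and CHI3L1. In SENP3-EIF4A1 the grey points themselves lie far apart, at 0.533, 183 and 203 FPKM in shNC replicates 1 to 3.

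Called genes within 100000 bases of each other that moved the same way formed 3 pairs over 6 libraries and 41 pairs over 5. The 3 pairs were PRSS1 with PRSS2, CXCL10 with CXCL11 and HIST2H2AA3 with HIST2H2AA4. Pairs this close among all tested genes were not counted, so neither count measures clustering of the called genes. OSBPL10, a neighbour of GPD1L on chromosome 3, was among the pairs over 5 libraries and was named after its values were seen. It was at 20.2, 21.1 and 19.8 FPKM in shNC and at 15.1, 16.7 and 25.6 FPKM in shGPD1L, so replicate 3 lay above the controls (log2 change -0.34 over 5 libraries and -0.12 over 6).

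In the separate overexpression table, where 1484 of 12208 tested genes (12.2%) were called higher and 1256 (10.3%) lower in OE than in Vector, 68 of the 72 knockdown calls were tested. Of 14 that rose in the knockdown, 2 were higher and 2 lower in OE. Of 54 that fell, 16 were higher and 10 lower in OE. GPD1L itself, ATF3 (log2 change 0.71 in OE, adjusted p = 0.00257), HIST1H2BK (0.92, adjusted p = 0.00054), MMP1 (0.45, adjusted p = 0.0127), RRM2B (0.35, adjusted p = 0.0074) and FAS (0.37, adjusted p = 0.0312) fell in the knockdown and rose in OE. VGF (-0.44, adjusted p = 0.00701) and ID3 (-0.57, adjusted p = 0.00432) rose in the knockdown and fell in OE. PER1 (0.86, adjusted p = 0.000242) and DBP (0.86, adjusted p = 0.00101) rose in both, and CXCL11 (-0.74, adjusted p = 0.000263), CXCL10 (-0.32, adjusted p = 0.0126), ELF3 (-0.47, adjusted p = 0.0322) and IL32 (-0.35, adjusted p = 0.0406) fell in both. PRSS2 (0.06, adjusted p = 0.575) and PRSS1 (0.15, adjusted p = 0.26) were not called in OE. By list, p53 targets had 13 of 29 members higher and 0 lower in OE, colon differentiation genes 0 higher and 14 of 18 lower, interferon-stimulated genes 0 higher and 21 of 37 lower, and mitosis genes 20 of 39 higher and 0 lower. The tables share no libraries, and differences between the knockdown and overexpression changes were not tested.

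**Figure D5:**
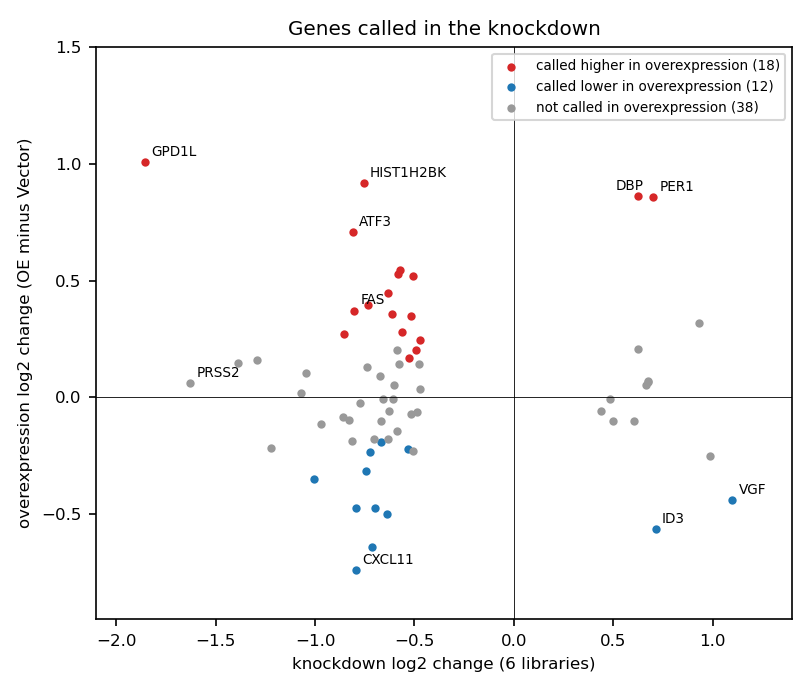
Log2(FPKM + 1) change in the overexpression (OE minus Vector) against that in the knockdown (shGPD1L minus shNC, 6 libraries) for the 68 knockdown calls tested in both tables, each point a gene coloured by its call in OE. GPD1L, ATF3 and HIST1H2BK lie at the upper left, VGF and ID3 at the lower right, PER1 and DBP at the upper right and CXCL11 at the lower left.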

How the data were processed

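Poly(A) RNA of 12 libraries of SW480 cells was sequenced. The authors deposited gene tables of FPKM, 1 for the knockdown and 1 for the overexpression. Per the submitters' processing notes, HISAT2, StringTie, DESeq2 and the GRCh38 build were used; versions and roles are not recorded there. The sources used here give neither strandedness nor depth, and no interval for counting error is given. Libraries were grouped by title, and the genotype labels, which number the gene name along with the replicate, were read as a slip.

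All 12388 annotated identifiers of the knockdown table matched GENCODE release 29, 1166 genes assembled without an identifier were tested but not named, and 21 symbols turned into dates were restored. Those averaging 1 FPKM or more were fitted as log2(FPKM + 1), pseudocount 1, with limma 3.58.1 (R 4.3.3; lmFit, eBayes with trend) and Benjamini-Hochberg adjustment, within each table. The fit over 5 libraries kept the same genes. The limma scripts were checked on simulated data. The labels do not say what a replicate number shares, so no block entered the fits. Same-numbered libraries did not deviate together, but groups of 3 libraries are too small for this to exclude pairing.

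The comparison, the 36 gene lists and the named-gene rule were chosen with earlier results of these data known, and no list was tested as a set. The rule took GPD1L, GPD1, GPD2 and ATF3, then the 14 genes higher and the 20 lower with the largest change over 6 libraries. From those called over 5 libraries only it took 12 each way with replicate 3 beyond the shNC range and 5 each way with it on the other side. It added the 12 genes each way farthest off in replicate 3 (mean of at least 5 FPKM) and up to 4 called members per list; further list members and neighbours were named after their values were seen. A gene that the rule named is not reported here. RefSeq promoters (GRCh38.p14) matched 6424 tested symbols with a single entry of 250 bases before to 50 after the start. Figures used matplotlib 3.10.9 in Python 3.11.15.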

Additional observations from a re-analysis of the deposited data

How the results depend on the processing

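Alternatives were followed for 41 genes named by the rule and called over 6 libraries, and for 92 called over 5 libraries only. None of these changed the sign of its log2 change among the alternatives of its own fit. Between the fits the sign did change for GDF15 (-0.44 over 5 libraries, 0.12 over 6) and AKR1C1 (-0.56 and 0.02). Called genes named outside the rule were not followed in this way. Over 6 libraries, where 72 genes were called, quantile normalization gave 25, limma array weights 1281, and leaving out 1 library 0 to 609. The replicate block gave 3. The other settings (a pseudocount of 0.1 or 0.5, a minimum mean of 5 FPKM or none, median-of-ratios scaling, robust fitting) gave 50 to 71. Over 5 libraries, where 609 were called, the replicate block gave 137 and leaving out a further library 39 to 327, and the other settings 483 to 669; leaving out shGPD1L replicate 1 or 2 there leaves 1 library in that arm, which is assumed to vary like the others. Array weights gave shGPD1L replicate 3 a weight of 0.189, against 0.8 to 2.49. The correlations of same-numbered libraries were -0.016, -0.18 and -0.163. These give no sign of pairing but cannot exclude it, and the causes of the differences between settings were not tested. In the overexpression, where 2740 were called, leaving out 1 library gave 1550 to 1980. For GPD1L, leaving out 1 library gave log2 changes from -2.0 to -1.74, with the call lost without any 1 shNC library (adjusted p 0.0677, 0.0522 and 0.0836). The median of the G1/S list was -0.06 as fitted and 0.08 with array weights. The median over all genes was -0.036 as fitted and 0.002 and 0.003 with the 2 other scalings. The unknown read depth limits what can be said of genes near 1 FPKM, and no outlier test on single genes is given.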
